A study of Mus musculus with 26 samples.

Results

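Described here are 35 genes of the unfolded protein response and the integrated stress response in cultured mouse pro-B cells that lost Brg1 (gene Smarca4), the ATPase that drives SWI/SNF chromatin remodelling. The genes were taken by name, and each of the 35 was found among the 19404 genes listed for a Brg1 deletion experiment and among the 19719 genes listed for a Brg1 knockdown experiment. They were ordered by role into 15 chaperones and folding enzymes of the endoplasmic reticulum (ER), 5 genes of ER-associated degradation and the translocon, the 3 genes Ern1, Xbp1 and Atf6, and 12 genes of the Atf4 and Ddit3 arm.

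All cells were B220+ bone marrow cells of C57/Bl6 mice, a strain written as in the labels, and were kept in culture with IL7 and SCF over 7 days. In the deletion experiment the controls had the genotype Brg1+/+ x ER-Cre (2 libraries) and the depleted cells Brg1F/F x ER-Cre (2 libraries), and both received tamoxifen, which activates the ER-Cre recombinase, at 0.3 µM during the final 60 hours. In the knockdown experiment all cells were Rag1-/-, a genotype that blocks antigen receptor rearrangement, and took up, on days 3 and 4, retroviral vectors for a control shRNA (3 libraries) or an shRNA against Brg1 (3 libraries) before infected cells were enriched on beads by the human CD25 marker of the vector. The age of the mice and whether replicate libraries came from separate mice were not given in the sources used here, so the p-values measure the spread between these libraries, which may be technical. In bulk RNA of this kind, fewer cells of a type and less RNA per cell cannot be told apart.

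When unfolded proteins accumulate in the ER, 3 sensors respond. IRE1 alpha (Ern1) splices the messenger RNA of Xbp1 into a form that encodes an active transcription factor, Atf6 is cut to release another, and PERK (Eif2ak3) phosphorylates the translation factor eIF2 alpha. Xbp1 and Atf6 drive genes for chaperones, translocation and ER-associated degradation, while phosphorylated eIF2 alpha, which GCN2 (Eif2ak4) also makes when amino acids are short, lowers general translation and favours translation of Atf4. Atf4 then drives genes for amino acid supply and, with Ddit3 (CHOP), further stress genes. In B cells the Xbp1 arm is best known from plasma cells, which secrete antibody. The tables used here give the total RNA of a gene, and neither the splicing of Xbp1 nor the cleavage of Atf6 nor the phosphorylation of eIF2 alpha can be read from them.

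Each deposited table gives 1 authors' mean of normalized reads per group, a log2 fold change, a p-value and a Benjamini-Hochberg adjusted p-value, and a gene was called at an adjusted p under 0.05. In the deletion table, each mean could be resolved into whole reads of its 2 libraries where only 1 split of the reads was possible, which held for 26 of the 35 genes. No replicate number is attached to a recovered library, so the libraries are told apart by depth, with about 10770000 and 10210000 reads in the deeper and the shallower control library and 11550000 and 8810000 in the Brg1-deleted ones. The knockdown libraries held about 5200000 to 11050000 reads and could not be separated gene by gene. Smarca4 was 2.95-fold lower after deletion (adjusted p = 0.0008) and 1.98-fold lower after knockdown (adjusted p = 0.0472) in the authors' deposited tables, in the direction of the labels.

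Promoter sequences are shown first because they carry the elements through which the response is known to act. RefSeq windows on GRCm38.p6 (mm10), from 250 bases before to 50 bases after a start site, were at hand for 31 of the 35 genes (33 windows) and did not cover Manf, Hyou1, Atf6 and Ppp1r15b. The ER stress response element was searched on both strands as CCAAT and CCACG separated by 9 bases. It was found in 8 of the 33 windows (24.2%), each of a different gene. Of 32851 windows of that length in the whole table, 39 held it (0.119%). The members were chosen as genes of this response, so these shares are a description and no test. The matches are given in the direction of the element, with the searched letters in capitals. Those of Calr, Creld2 and the second of Hsp90b1 lie on the strand opposite to the gene.
Hspa5 (chr2:34772025-34772043): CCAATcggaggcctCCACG
Calr (chr8:84847075-84847093): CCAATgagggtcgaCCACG
Hsp90b1, first match (chr10:86705638-86705656): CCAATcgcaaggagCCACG
Hsp90b1, second match (chr10:86705533-86705551): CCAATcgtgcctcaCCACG
Canx (chr11:50325800-50325818): CCAATcaccacgctCCACG
Pdia6 (chr12:17266491-17266509): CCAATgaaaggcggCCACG
Dnajc3 (chr14:118937827-118937845): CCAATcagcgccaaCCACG
Creld2 (chr15:88819520-88819538): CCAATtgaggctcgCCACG
Syvn1 (chr19:6046532-6046550): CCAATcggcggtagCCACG
These genes are 7 chaperones or folding enzymes and Syvn1, a ubiquitin ligase of ER-associated degradation. In the authors' deposited tables the median log2 fold change of the 8 genes was -0.93 after deletion and -0.39 after knockdown, with 7 genes below 0 and Syvn1 above 0 in each.

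A related element, ATTGG and CCACG separated by 1 base, was found in the windows of Herpud1 and Dnajb11 and in 12 of 32851 windows (0.037%). The amino acid response element bound by Atf4 was searched as TGATG and AA separated by 1 base and was found in 5 of the 33 windows (15.2%), those of Atf3, Chac1, Trib3, Asns and Herpud1, against 3.97% of all windows. The median log2 fold change of these 5 genes in the authors' deposited tables was -1.07, the value of Asns, after deletion and -0.81 after knockdown. The deletion values of Asns, Chac1 and Trib3 were much smaller without the deeper control library, as given with those genes. TGACGTGG, an element bound by Xbp1 and Atf6, was in 0 of the 33 windows and in 0.676% of all windows. Herpud1 held 2 of these elements, of different kinds, and the 250 bases before its start site (chr8:94386179-94386428, plus strand) are printed with the letters searched in capitals, the amino acid response element first and on the opposite strand. The elements do not overlap. A match of letters is a description and no measurement of binding.
Herpud1: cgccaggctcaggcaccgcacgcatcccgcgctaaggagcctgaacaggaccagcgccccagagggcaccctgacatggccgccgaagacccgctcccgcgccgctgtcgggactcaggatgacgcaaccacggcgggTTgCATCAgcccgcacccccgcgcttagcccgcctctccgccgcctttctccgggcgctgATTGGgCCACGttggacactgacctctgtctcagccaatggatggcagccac

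After Brg1 deletion, the RNA of the ER chaperones stood lower almost throughout, while the arms around them were divided. Hspa5, which encodes BiP, the main Hsp70 chaperone of the ER lumen, fell 2.23-fold (adjusted p = 0.0444) and was the single call among the 35 genes in the authors' deposited tables. In the table for deletion, 0.742% of all listed genes were called lower and 0.732% higher, and in that for knockdown, 0.0406% were called lower and 0.177% higher, with 0 of the 35 members called after knockdown (adjusted p = 1 for each). The median log2 fold change of the 35 genes was -0.54 after deletion and -0.32 after knockdown, beside -0.0014 and -0.0028 over all listed genes. Of the 35, 25 lay below 0 after deletion and 27 after knockdown (71.4% and 77.1%), beside 50.1% and 50.3% of all listed genes.

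At an unadjusted p under 0.05 in the authors' deposited table, 11 of the 35 genes were lower after deletion, beside 5.29% of all listed genes, and 2 were higher, beside 4.23%. The 11 were 10 chaperones and Xbp1, and the 2 were Syvn1 and Ddit4. After knockdown, 4 genes were lower (Hsp90b1, Pdia6, Sdf2l1 and Chac1), beside 1.08% of listed genes, and Ddit4 alone was higher, beside 1.67%. Among 9167 genes with a mean of at least 10 reads per 1000000 listed reads in the deletion experiment, 828 were lower and 643 higher. In the knockdown experiment, 154 of 8927 such genes were lower and 222 higher at the same p threshold.

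**Figure D1:**
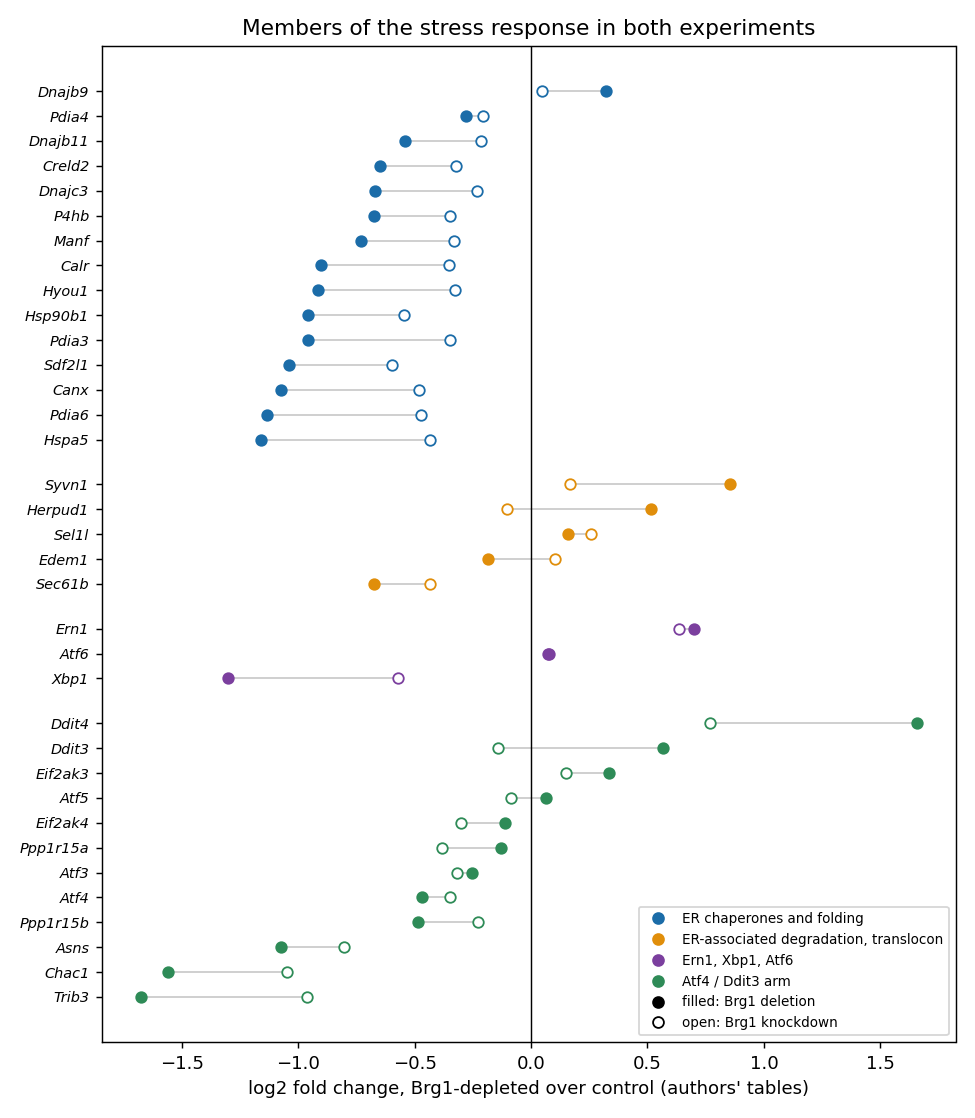
Log2 fold change of each of the 35 genes, Brg1-depleted over control, from the authors' deposited tables (filled for deletion, open for knockdown, coloured by arm). 14 of 15 chaperones lie below 0 in both experiments, while Ddit4 has the highest value in both (1.66 and 0.77); the 2 points of Atf6 coincide.

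In the authors' deposited tables the 15 chaperones and folding enzymes had a median log2 fold change of -0.90 after deletion and -0.35 after knockdown, and 14 of 15 lay below 0 in each. Together they took 0.46% of the listed reads in the controls of the deletion experiment and 0.251% after deletion. In the knockdown experiment their share was 0.443% with the control shRNA and 0.343% with the Brg1 shRNA. The gene outside this pattern in both experiments was Dnajb9, a J-domain co-chaperone that restrains IRE1, at 0.32 and 0.05.

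Hspa5 had an authors' mean of 6082 normalized reads in the controls and 2723 after deletion. Its Brg1-deleted libraries held 2719 and 2728 normalized reads in the deeper and the shallower library. The control mean allowed 3 splits, namely 6283 and 5881, 4348 and 7817, or 10647 and 1517. The Brg1-deleted libraries lie below both controls in 2 of the 3 splits and not in the third. Splits as uneven as the third are uncommon: of 1580 resolved genes whose control mean reached 1000 normalized reads, 0.316% differed over 4-fold between the control libraries.

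The other abundant chaperones had values close to that of Hspa5. Hsp90b1, the Hsp90 chaperone of the ER, had authors' means of 10055 in the controls and 5178 after deletion (log2 fold change -0.96, p = 0.0033, adjusted p = 0.14 in the authors' deposited table). The lectin chaperone Canx (calnexin) had means of 6956 and 3305 (-1.07, p = 0.0011, adjusted p = 0.074) in the authors' deposited table, and Calr (calreticulin) of 6866 and 3679 (-0.90, p = 0.0078, adjusted p = 0.23). None of these passed the adjusted threshold. Their control libraries could not be resolved, nor could the Brg1-deleted libraries of Hsp90b1 and Canx. Brg1-deleted libraries lie below both controls in 5 of 18 combinations of splits for Hsp90b1, 1 of 4 for Canx and 2 of 4 for Calr. They lie above both controls in 0 of them, so the separation of libraries is undecided for these genes. For each gene, some of the counted splits are more uneven than the third split of Hspa5.

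Among the disulphide isomerases, which make and rearrange disulphide bonds in the ER lumen, Pdia6 held 2675 and 2096 normalized reads in the deeper and shallower control library. Its Brg1-deleted libraries held 1088 and 1084. The groups did not overlap, and the log2 fold change of -1.14 in the authors' deposited table had a p of 0.0008 and an adjusted p of 0.0579. Pdia3, a glycoprotein isomerase, held 2236 and 1832 in the Brg1-deleted libraries, below both controls in either of the possible splits of its control mean of 3953 (3620 and 4285, or 5556 and 2350). P4hb, a further isomerase, had authors' means of 3074 and 1927, and Pdia4 differed least, with 1923 and 1761 in controls and 1626 and 1409 after deletion.

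Sdf2l1, a luminal protein that works with J-domain co-chaperones, held 633 and 743 normalized reads in the controls and 352 and 317 after deletion. Hyou1, a large Hsp70 relative and nucleotide exchange factor, held 2142 and 1526 in the controls and 881 and 1065 after deletion. In both genes the higher Brg1-deleted library was well under the lower control. The authors' deposited table gives Sdf2l1 a log2 fold change of -1.04 (p = 0.0041, adjusted p = 0.16) and Hyou1 one of -0.91 (p = 0.0057, adjusted p = 0.19).

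The J-domain co-chaperone Dnajb11 held 1276 and 1270 in the controls and 976 and 771 after deletion, and Dnajc3, another of the kind, 1092 and 1244 against 825 and 644. Manf, a secreted survival factor held in the ER, had 796 and 994 in the controls and 629 and 451 after deletion, and Creld2, a luminal protein induced by ER stress, 447 and 461 against 270 and 309. The groups stood apart in each of these 4 genes. Dnajb9 was the resolved chaperone that ran the other way, with 137 and 141 in the controls and 162 and 186 after deletion (p = 0.46 in the authors' deposited table).

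Of the 9 resolved chaperones, 8 had both Brg1-deleted libraries below both controls and Dnajb9 had both above. Over the 26 resolved members, 13 were separated downwards, 5 upwards and 8 overlapped. Of all 16845 resolved genes whose mean was 1 or more, 23.5% were separated downwards and 24.7% upwards. A limma fit to the resolved reads called 0 of the 16845 genes it tested at an adjusted p under 0.05. Hspa5 was not among the genes tested. In simulated data with a dispersion, a measure of spread between libraries, of 0.1, limma called 2 of 100 genes changed 2-fold. It called 47 of 100 genes changed 4-fold and 0 of 16645 unchanged genes. That dispersion was not fitted to these members, so the simulation does not show how often their changes would be missed. At an unadjusted p under 0.05 the fit to the resolved reads gave 11 of the 26 resolved members, beside 16.8% of all genes tested. Of the 11, 9 were lower, and Ern1 and Ddit4 were higher.

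**Figure D2:**
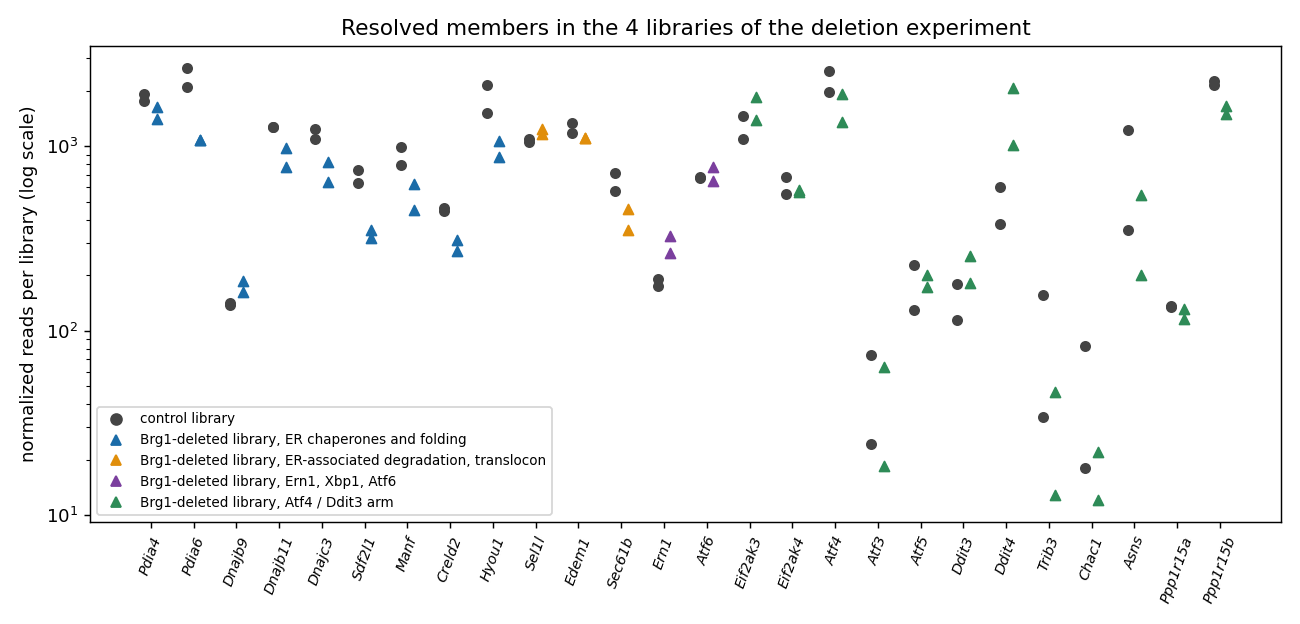
Normalized reads (log scale) of the 26 resolved members in each library of the deletion experiment, circles for the 2 control libraries and triangles for the 2 Brg1-deleted libraries, coloured by arm. In 8 of the 9 chaperones both triangles lie below both circles, whereas the circles and triangles of Trib3, Chac1 and Asns overlap.

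After knockdown, the chaperones kept to smaller differences. Sdf2l1 had authors' means of 591 with the control shRNA and 391 with the Brg1 shRNA, a log2 fold change of -0.60 (p = 0.027, adjusted p = 1 in the authors' deposited table). Hsp90b1 had 8022 and 5501 (-0.54, p = 0.0346) and Pdia6 had 1966 and 1416 (-0.47, p = 0.0478) in the authors' deposited table, with an adjusted p of 1 for both. Hspa5 had 4844 and 3588, a log2 fold change of -0.43 with p = 0.0954 in the authors' deposited table. In all 15 chaperones the size of the log2 fold change was larger after deletion than after knockdown, as it was in 68.4% of all genes in both tables. The difference between experiments was not tested, because the knockdown libraries could not be separated and the tables were normalized apart.

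The 5 genes of ER-associated degradation and the translocon did not share a direction. In the authors' deposited table for deletion their median log2 fold change was 0.16, with 2 of 5 below 0. Syvn1 (HRD1), the ubiquitin ligase that marks ER proteins for the proteasome, had authors' means of 4514 and 8168 (log2 fold change 0.86, p = 0.0116, adjusted p = 0.30 in the authors' deposited table). After knockdown its value was 0.17 (p = 0.99 in the authors' deposited table). The gene model of Syvn1 overlaps that of Mrpl49, a mitochondrial ribosomal protein, and it carries a mark of the authors for confounded genes. Whether the counting used strand was not given in the sources used here, so reads of the overlapping stretch cannot be assigned with certainty.

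Sel1l, the adaptor of Syvn1, held 1103 and 1056 normalized reads in the controls and 1243 and 1164 after deletion. These groups stood apart by a narrow margin, at a p of 0.63 in the authors' deposited table. Edem1, a lectin that passes glycoproteins to degradation, held 1344 and 1180 in the controls and 1114 and 1105 after deletion, below both controls but at p = 0.58 in the authors' deposited table. Sec61b, a subunit of the translocon through which proteins enter the ER, stood on the side of the chaperones, at 575 and 722 in the controls and 458 and 354 after deletion.

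Herpud1, a scaffold of the degradation complex and the gene whose promoter is printed above, gave no direction. Its control libraries held 1984 and 1040 normalized reads. The Brg1-deleted mean of 2160 could be split into 802 and 3518 or into 4219 and 100, and the groups overlap in either case. The log2 fold change of 0.51 came with p = 0.75 in the authors' deposited table, and the knockdown value was -0.10.

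None of the 3 genes Ern1, Xbp1 and Atf6 passed the adjusted threshold after deletion. Xbp1 had authors' means of 1684 in the controls and 683 after deletion, a log2 fold change of -1.30 (p = 0.0006, adjusted p = 0.0505 in the authors' deposited table) that narrowly missed the threshold. Its Brg1-deleted libraries held 580 and 786. The control mean could be split into 1977 and 1391, both above the Brg1-deleted libraries, or into 41.9 and 3326. Splits as uneven as the second are uncommon, as given for Hspa5. Of 1580 resolved genes whose control mean reached 1000, 0.316% differed over 4-fold between the control libraries. After knockdown the means of Xbp1 were 1251 and 843 (-0.57, p = 0.0703 in the authors' deposited table).

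Ern1, the kinase and nuclease that splices Xbp1, held 191 and 174 normalized reads in the controls and 265 and 328 after deletion. Both Brg1-deleted libraries were above both controls, with a log2 fold change of 0.70 (p = 0.0798 in the authors' deposited table). The knockdown gave 0.64 (p = 0.0986 in the authors' deposited table), from means of 102 and 159. Atf6 held 674 and 679 in the controls and 650 and 776 after deletion, which overlap. The authors' deposited tables give it values of 0.08 and 0.07, among the smallest of the 35.

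The 12 genes of the Atf4 and Ddit3 arm spanned the widest range, from -1.68 in Trib3 to 1.66 in Ddit4 after deletion in the authors' deposited table. The median was -0.19 with 8 of 12 below 0, and in the knockdown it was -0.31 with 10 of 12 below 0. Neither table called any of the 12.

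The kinase and phosphatase genes around eIF2 alpha differed little. Eif2ak3 (PERK) held 1101 and 1462 in the controls and 1844 and 1385 after deletion, and Eif2ak4 (GCN2) 683 and 555 against 566 and 581, so that both overlapped. Ppp1r15a (GADD34), the stress-induced phosphatase subunit that restores translation, held 135 and 136 in the controls and 116 and 131 after deletion. Ppp1r15b (CReP), the constitutive subunit, held 2275 and 2157 against 1664 and 1497, the clearest separation of these 4 (log2 fold change -0.49, p = 0.15 in the authors' deposited table).

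Among the transcription factors, Atf4 held 2571 and 1960 normalized reads in the controls and 1352 and 1919 after deletion. The higher Brg1-deleted library came close to the lower control, and the log2 fold change of -0.47 had a p of 0.13 in the authors' deposited table. Ddit3 held 180 and 114 in the controls and 182 and 254 after deletion. Its lower Brg1-deleted library and its higher control were nearly level, its value in the authors' deposited tables was 0.57 after deletion and -0.14 after knockdown, and its gene model overlaps that of Mars, a methionine tRNA synthetase. Atf3 (24.4 and 74.1 against 63.9 and 18.6) and Atf5 (226 and 130 against 173 and 200) overlapped.

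Ddit4, an inhibitor of mTORC1 signalling, had the highest value of the 35 genes in both experiments. It held 380 and 603 normalized reads in the controls and 2082 and 1019 after deletion. Both Brg1-deleted libraries were above both controls but differed from each other, and the log2 fold change was 1.66 (p = 0.0317, adjusted p = 0.52 in the authors' deposited table). Its knockdown means were 492 and 837 (0.77, p = 0.0444, adjusted p = 1 in the authors' deposited table).

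Trib3, Chac1 and Asns, known targets of Atf4, had log2 fold changes among the lowest of the 35, and each had a wide spread within its groups. Trib3, a pseudokinase, held 156 normalized reads in the deeper control library and 34 in the shallower one, against 13.0 and 46.5 in the deeper and shallower Brg1-deleted libraries. Chac1, which degrades glutathione, held 82.9 and 18.0 against 12.1 and 22.1. Asns, asparagine synthetase, held 1224 and 350 against 201 and 547. In all 3 genes the shallower Brg1-deleted library exceeded the shallower control, and p-values in the authors' deposited table were 0.27, 0.30 and 0.34 beside log2 fold changes of -1.68, -1.56 and -1.07. In limma on the resolved reads the values were -1.55 for Trib3, -1.22 for Chac1 and -0.98 for Asns. Without the deeper control library they were -0.46, -0.14 and -0.08, and without the deeper Brg1-deleted library -0.64, -0.79 and -0.26.

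The same order of libraries, high in the deeper control and in the shallower Brg1-deleted library, was counted over gene lists. It held in 7 of the 12 genes of the Atf4 and Ddit3 arm (58.3%) and in 18 of 23 resolved genes of a list of further Atf4 targets (78.3%), against 1 of the 9 resolved chaperones and 34.4% of all 16845 resolved genes. It also held in 6 of 10 resolved genes of the eIF2 and eIF2B list (60.0%) and in all 4 resolved pro-B markers, so it was not limited to Atf4 targets. These counts were made after the values were seen. After knockdown, Trib3 had means of 181 and 93.0, Chac1 219 and 106, and Asns 1209 and 692, with p-values of 0.33, 0.0269 and 0.11 in the authors' deposited table.

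**Figure D3:**
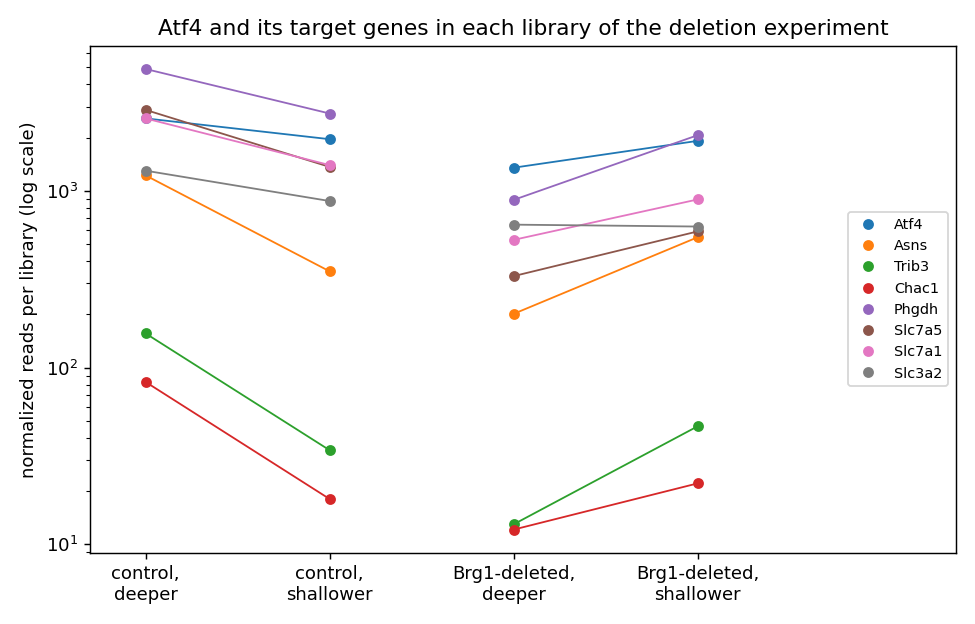
Normalized reads (log scale) of Atf4, of its targets Asns, Trib3 and Chac1, and of the 4 further targets with the smallest p after deletion, in the 2 control and the 2 Brg1-deleted libraries; lines join libraries of 1 group and pair nothing across groups. Trib3, Chac1 and Asns are high in the deeper control library (156, 82.9 and 1224) and low in the deeper Brg1-deleted library (13.0, 12.1 and 201).

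Levels can be compared between genes once divided by exon length. In reads per kb of exon per 1000000 listed reads, the chaperones of the deletion controls ran from 241 for Hsp90b1, 230 for Calr and 167 for Hspa5 down to 7.21 for Dnajb9. Atf4 stood at 127 and Syvn1 at 91.3, whereas Ern1 was at 2.16 and Atf3 at 2.39. Chac1 and Trib3 were at 2.97 and 4.32 in the deletion controls and at 15.1 and 9.60 in the Rag1-null controls with control shRNA. The experiments differ in genotype, in treatment and in normalization, so these controls are set side by side only. The same quantity for Hspa5 was 76.7 after deletion and 119 after knockdown, beside 167 and 155 in the respective controls.

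**Figure D4:**
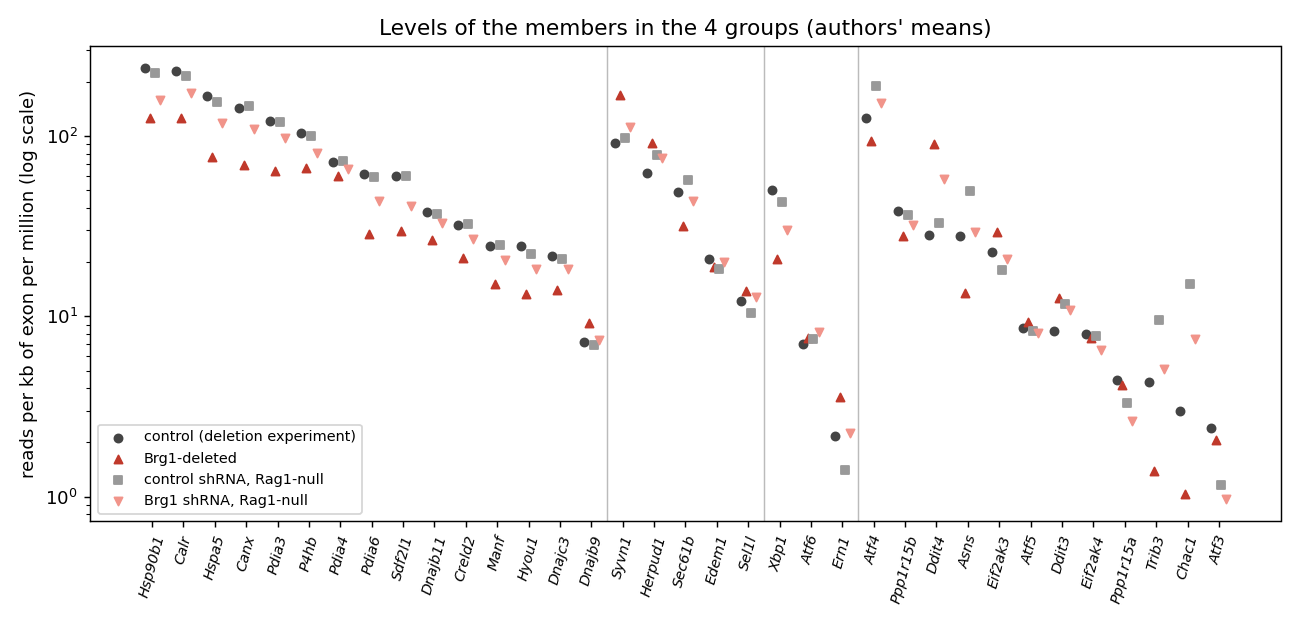
Level of each member in the 4 groups, in reads per kb of exon per 1000000 listed reads (log scale), computed from the authors' means, with grey lines between the arms. The tables were normalized separately; Hspa5 stands at 167 and 155 in the control groups, and the Brg1-deleted group is the lowest of the 4 for 14 of the 15 chaperones.

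Set side by side, 31 of the 35 genes had the same sign in both experiments (88.6%), 24 lower and 7 higher. Herpud1, Atf5, Ddit3 and Edem1 differed in sign. The same sign was found for 71.9% of all genes in both tables, and for 82.2% of those with at least 10 CPM (reads per 1000000 listed reads). The size of the log2 fold change was larger after deletion in 30 of the 35 genes (85.7%), beside 68.4% of all genes in both tables and 78.5% of those with at least 10 CPM. The experiments share no library.

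Other genes of the same pathways are given list by list, and the lists were not compared by a test. Of 23 genes of the translocon, the signal peptidase and the oligosaccharyltransferase, which carry new proteins into the ER and trim and glycosylate them, 18 lay below 0 with a median of -0.37 and 0 calls in the authors' deposited table. Rpn1 and Rpn2, subunits of the oligosaccharyltransferase, had log2 fold changes of -0.98 (p = 0.0034) and -0.78 (p = 0.0169) in the authors' deposited table, and Spcs2, a signal peptidase subunit, -0.86 (p = 0.011). Stt3b, a catalytic subunit of the transferase, had -0.62 (p = 0.0639) in the authors' deposited table. After knockdown 16 of the 23 lay below 0, with a median of -0.15.

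Of 17 further ER folding genes, 9 lay below 0 after deletion, and Ero1lb, an oxidase that recharges disulphide isomerases, rose 2.65-fold (adjusted p = 0.0074 in the authors' deposited table). Ero1lb held 764 and 634 normalized reads in the controls and 2019 and 1691 after deletion, so that both Brg1-deleted libraries exceeded both controls. After knockdown its means were 653 and 1095 (p = 0.0036, adjusted p = 0.68 in the authors' deposited table). Prdx4, a peroxiredoxin of the ER, held 543 and 695 in the controls and 312 and 258 after deletion (p = 0.0025, adjusted p = 0.12 in the authors' deposited table). Ero1l, the relative of Ero1lb, had a log2 fold change of -0.65 (p = 0.0725) and Sdf2, a relative of Sdf2l1, one of 0.57 (p = 0.12) in the authors' deposited table.

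Of 16 further genes of ER-associated degradation, 7 lay below 0 after deletion, with a median of 0.10 and 0 calls in the authors' deposited table. Derl3, a derlin of the retrotranslocation complex, held 24.4 and 25.0 in the controls and 70.8 and 66.3 after deletion. Its p was 0.0117 and its adjusted p 0.30 in the authors' deposited table. After knockdown, however, its means were 29.9 with the control shRNA and 29.6 with the Brg1 shRNA. Vcp, the ATPase that extracts proteins from the ER membrane, had a log2 fold change of -0.49 (p = 0.22) and its cofactor Nploc4 one of -0.32 (p = 0.30) in the authors' deposited table. Os9, a lectin of the complex, stood at 0.33 (p = 0.32) in the authors' deposited table. Among 11 other factors of the response 3 lay below 0, with a median of 0.05, and Wfs1, an ER membrane protein, had the smallest p (0.74, p = 0.0637 in the authors' deposited table). Creb3, Tmbim6 and Traf2, which followed, had log2 fold changes of 0.48, 0.24 and 0.25 there.

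Genes of the eIF2 complex, its exchange factor eIF2B, further kinases, Gcn1l1 and Nck1 were below 0 in 12 of 12 cases in both experiments. The medians were -0.56 and -0.23 in the authors' deposited tables, with 0 calls. Nck1 lay nearest to 0, at -0.03 after deletion and -0.04 after knockdown. Eif2s1, which encodes eIF2 alpha itself, held 1748 and 1623 in the controls and 813 and 778 after deletion (p = 0.0016, adjusted p = 0.0939 in the authors' deposited table). Its means after knockdown were 1661 and 946 (p = 0.0115, adjusted p = 1 in the authors' deposited table). Eif2s2 and Eif2s3x, the other subunits, had log2 fold changes of -0.85 and -0.68 after deletion, and Eif2b3, of the exchange factor, -0.85.

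Of 26 further Atf4 targets listed, 24 lay below 0 after deletion with a median of -0.89, and 23 after knockdown with a median of -0.49, with 0 calls in the authors' deposited tables. Slc7a5, a transporter of large neutral amino acids, held 2873 and 1366 in the controls and 329 and 590 after deletion (log2 fold change -2.21, p = 0.0139, adjusted p = 0.33 in the authors' deposited table). Slc7a1 and Slc3a2, a cationic amino acid transporter and the heavy chain that pairs with Slc7a5, had -1.48 and -0.78 there, and Phgdh, the first enzyme of serine synthesis, -1.37. These 4 were named for their small p-values. Of the 23 resolved genes of the list, 13 had both Brg1-deleted libraries below both controls, 1 had both above and 9 overlapped, beside 23.5% of all resolved genes below and 24.7% above.

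Markers of other cell types also differed in the deletion experiment. All 12 myeloid markers lay below 0 in the authors' deposited table, with Prtn3, Ctsg, Ly6c2 and Elane, proteins of myeloid cells, called lower (adjusted p = 1.15e-06, 2.74e-05, 0.0024 and 0.015). The sum of the 11 resolved myeloid markers was 4270 and 8346 normalized reads in the deeper and shallower control and 4669 and 2572 after deletion, with Lyz2 the most abundant at means of 3687 and 2431, and none of the 12 was at 0 in a group. After knockdown 7 of the 12 lay below 0 and the sums of means were 490 and 500. The part of these markers in the chaperone values was not tested.

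Of 12 pro-B markers, 6 lay below 0 after deletion, and Cd79b, a chain of the B cell receptor, rose 2.55-fold (adjusted p = 0.0106 in the authors' deposited table) with the largest mean of the list after deletion (20542). Dntt and Kit, chosen with their values in view, stood at log2 fold changes of -1.92 (p = 0.0043, adjusted p = 0.16) and -1.66 (p = 0.0805, adjusted p = 0.81) in the authors' deposited table. The 4 resolved pro-B markers summed to 4638 and 2795 in the deeper and shallower control and to 1154 and 3856 after deletion. The defining factors Ebf1 and Pax5 had means of 7809 and 4933 in the controls and of 7690 and 6037 after deletion. Their p-values were 0.94 and 0.34 in the authors' deposited table. Of 7 listed plasma cell markers, 4 lay below 0, among them Xbp1 itself. The 5 resolved ones summed to 1021 and 729 in the controls and 454 and 836 after deletion, and Irf4 was the most abundant (3192 and 2901). Prdm1, the defining factor of plasma cells, was near the bottom at means of 16.9 and 18.4. The 8 mast cell and basophil markers summed to 252 and 779 in the controls and 809 and 290 after deletion, with Cpa3 highest (176 and 174), and 4 of 8 lay below 0. Whether these cells bear on the stress response genes was not tested.

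For 13 of the 35 members the authors set the mark for confounded genes, which no source used here defines. Of these, 9 overlap another listed gene, namely Hsp90b1, Pdia3, Manf, Herpud1, Syvn1, Eif2ak3, Atf5, Ddit3 and Ppp1r15a, whereas 0 of the 22 members without the mark do. Among the genes without it are Hspa5, Canx, Calr, Sdf2l1, Hyou1, Xbp1, Ern1, Ddit4, Trib3, Chac1 and Asns.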

How the data were processed

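RNA of 10 libraries in 4 groups was analysed, and the other 16 of the 26 samples were not analysed here. Poly(A) RNA was made into strand-marked libraries, per the labels' protocols. CASAVA, RSEM and DESeq with the mm10 build are named in the submitters' processing notes, without versions. The deposited mean columns are a signal, reads divided by library size factors and averaged per group by the authors. Per the file headers, the authors also computed the deposited log2 fold change, the linear fold and the p-value with its Benjamini-Hochberg adjustment. The deposited exon length was used for levels.

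Because the tables hold no sample columns, planned count tests were not run and calls are the authors', at an adjusted p under 0.05. Each deletion mean is a sum of whole reads of 2 libraries. The worth of 1 read in each library was found by least squares, all genes were solved within a tolerance of 6.0e-05, and a gene was resolved where 1 solution existed. As an alternative, limma 3.58.1 in R 4.3.3, with a mean-variance trend, was fitted to resolved reads of genes whose mean was 1 or more, as log2 of the reads plus 0.5, divided by the size factor. Both steps were tested on simulated data of dispersion 0.1, a value not fitted to these genes. There limma called 2 of 100 genes changed 2-fold, 47 of 100 changed 4-fold and 0 of 16645 unchanged genes. Depths of 5200000 to 11550000 reads limit the precision of low genes such as Chac1.

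Python 3.11.15 (pandas 2.3.3, numpy 2.4.6, matplotlib 3.10.9, scipy 1.17.1) made the tables, motif searches and figures. Members, arms and further lists were chosen with earlier results of these data known. All members are named. Of further lists, called genes and up to 4 with the smallest p after deletion are named. Of cell type markers, those called and the most abundant are named. Outside this rule, Gcn1l1, Nck1, Dntt, Kit, Ebf1, Pax5 and Prdm1 are named as well. Of the lists, Fam8a1, Fgf21 and Tnfrsf17, and for knockdown Mcpt8 and Ms4a2, were not analysed here. Alternatives were other p thresholds and adjustments, a minimum fold, level filters, pseudocounts, scalings and leaving out each recovered library.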

Additional observations from a re-analysis of the deposited data

How the results depend on the processing

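The count of members called after deletion was 1 as deposited, 4 at an adjusted p under 0.1, 3 with the adjustment over listed genes alone and 4 with it over genes of at least 10 CPM. It was 0 with limma on resolved reads, where 26 members could be tested, Hspa5 not among them, and 0 to 0 when each recovered library was left out in turn, the lone library then being assumed to vary like the other group. Pdia6, Xbp1 and Canx were the members that joined Hspa5 under the changed adjustments. Of 405 further values for single genes, 395 kept their direction and side, 5 crossed the threshold and 5 turned sign. These were Atf6, at -0.058 without the shallower Brg1-deleted library, Atf5, at -0.28 without the shallower control, Eif2ak4, at 0.046 without the deeper control, and Atf3, at 0.50 without the shallower control and 0.58 without the shallower Brg1-deleted library. The values of Trib3, Chac1 and Asns kept their sign but shrank to -0.46, -0.14 and -0.08 without the deeper control library. The cause was not tested. Members below 0 numbered 25 after deletion and 27 after knockdown under both scalings and both pseudocounts, and the 31 of the same sign in both experiments were still 31 under both scalings, which were chosen for this count after seeing the data. No paired analysis was possible because the recovered libraries and the deposited columns carry no replicate numbers. The members resolved to single libraries leave out Hspa5, Hsp90b1, Calr, Canx, Pdia3 and P4hb, the most abundant chaperones.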
